A study of Mus musculus with 2 samples.

Results

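Potassium channel subunits were followed in 2 areas of the embryonic mouse brain, the subventricular zone (SVZ) and the cortex. The members were the gene rows whose symbol starts with *Kcn*, leaving out symbols that end in os or ot1, and they numbered 96 of the 24411 genes counted. Of these, 94 code for proteins. The other 2, *Kcnmb4os1* and *Kcnmb4os2*, are antisense RNAs to *Kcnmb4* whose symbols end in a digit, and *Kcnrg* codes for a soluble regulator that is not itself a channel subunit.

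Laser capture microdissection (LCM), the cutting of chosen areas from a stained section with a laser, was used on fresh-frozen brain at embryonic day 16.5, and the RNA was sequenced in bulk. The SVZ, a germinal layer near the ventricle, gave 1 library, and the cortex gave 1 library. The labels name no treatment or genotype for either, and the strain and the number of embryos behind each library were not stated in the sources read. The areas were cut by their position, so each library pools every cell type present there. Gene-assigned reads numbered 51435667 (SVZ) and 22050693 (cortex), 2.33 times apart. Since each area is a single library, there is no replicate check, no test between areas and no p-value. Each ratio carries a 95% interval from the exact (Clopper-Pearson) limits of its read split. The interval covers counting error only and takes each read as a separate draw. PCR copies cannot be told from separate RNA molecules, so it may be too narrow even for counting error.

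Potassium channels let potassium ions leave or enter the cell and so set the resting potential and shape the action potential. Voltage-gated (Kv) channels open on depolarization, calcium-activated channels open when calcium rises, inward rectifiers (Kir) hold the resting potential or take up potassium, and K2P channels pass a leak current. Auxiliary subunits do not form a pore but change the gating or the delivery of the channels they bind. Neural progenitors and glia rely on leak and inward rectifier currents, whereas neurons add voltage- and calcium-gated channels as they become excitable.

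Levels are given as CPM, the reads of a gene per 1000000 gene-assigned reads. A member was compared between the areas when its mean over both libraries reached 1 CPM, and it was counted as different when the CPM values were at least 4-fold apart. Of the 96 members, 15 had no read in either library, 5 had at most 3 reads in either, and 22 had more reads but a mean under 1 CPM. The remaining 54 were compared. Of these, 40 stood higher in the cortex and 14 in the SVZ. The counting interval lay wholly on the cortex side for 37 members and wholly on the SVZ side for 14, and it held equal CPM for *Kcna3*, *Kcnip4* and *Kcns3*.

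A difference of 4-fold or more towards the cortex was found for 21 of the 54 members (38.9%), against 7.01% of all 12738 genes that reached the same minimum. Towards the SVZ it was found for 2 members (3.70%), against 10.2% of all genes. For 15 of the 21 the whole interval lay past 4-fold. For 7 of the 21 the SVZ level was under 0.4 CPM, so that reaching the minimum at all required a 4-fold difference. At a 2-fold threshold, 27 members (50%) were higher in the cortex library against 15.6% of all genes, and 7 (13%) in the SVZ library against 20%. The median log2 CPM ratio of SVZ over cortex was -0.99 over the 54 members (quartiles -2.53 and 0.11) and 0.11 over all 12738 genes. Without a minimum it was -0.83 over the 76 members with more than 3 reads in a library. In bulk tissue, fewer cells of a type and less RNA per cell cannot be told apart.

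**Figure D1:**
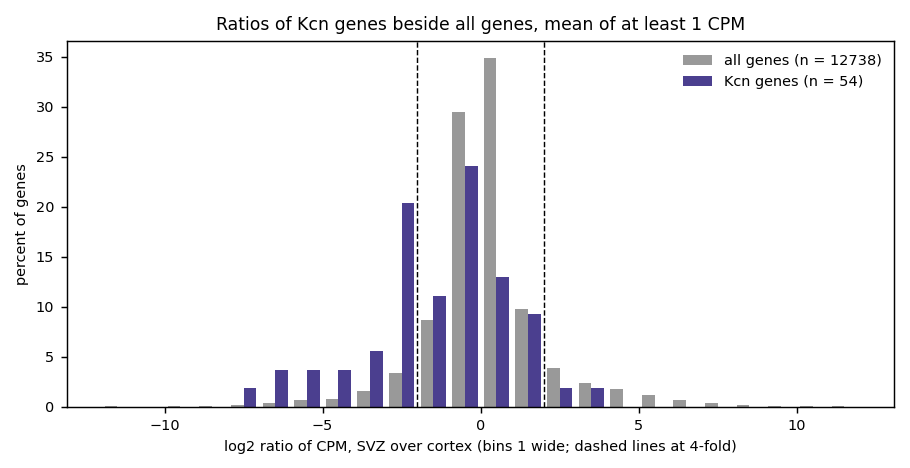
Percent of genes (vertical axis) by log2 ratio of CPM, SVZ over cortex (horizontal axis, bins 1 wide), for all 12738 genes averaging at least 1 CPM (grey) and the 54 *Kcn* genes among them (violet), with dashed lines at 4-fold. The bin from -3 to -2 holds 20.4% of the *Kcn* genes and 3.35% of all genes.

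Marker lists of cell types were set beside these counts. The neuron list (*Tubb3*, *Map2*, *Stmn2*, *Snap25*, *Syt1*, *Rbfox3*, *Dcx*, *Gap43*, *Nefl* and *Nefm*) was higher in the cortex for 10 of 10 genes, and its summed level was 2188 CPM in the SVZ and 8075 CPM in the cortex, with *Nefl* at 0 reads in the SVZ. The apical progenitor list (*Pax6*, *Sox2*, *Hes1*, *Hes5*, *Vim*, *Nes*, *Slc1a3*, *Fabp7* and *Prom1*) was higher in the SVZ library for 9 of 9 genes, with 6622 CPM in sum against 143 CPM. Other lists were divided. Of the 8 interneuron genes, 5 were higher in the SVZ and 3 in the cortex. Their summed level was higher in the cortex (154 and 514 CPM), but *Npy* alone supplied 14.3 and 379 CPM of these sums. Of the 6 endothelial genes, 3 were higher on each side. The part of cell composition in the *Kcn* ratios was not tested.

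The summed level of all members was 432 CPM in the SVZ library (22247 reads) and 761 CPM in the cortex library (16783 reads), a log2 ratio of -0.82 (interval -0.84 to -0.79). The most read member in the SVZ was *Kcnk2*, with 12.4% of the *Kcn* reads. The Kv7 family took 3.73% of the SVZ sum and 14.2% of the cortex sum, and the silent Kv subunits took 0.859% and 7.38%. The EAG, ERG and ELK family took 9.28% and 2.38%, and its summed level was also higher in the SVZ (log2 ratio 1.15, interval 0.99 to 1.30). The K2P family took a larger share of the SVZ sum (25.1% against 18.1%), although its summed level was lower there (108.7 and 137.5 CPM, log2 ratio -0.34, interval -0.40 to -0.27).

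**Figure D2:**
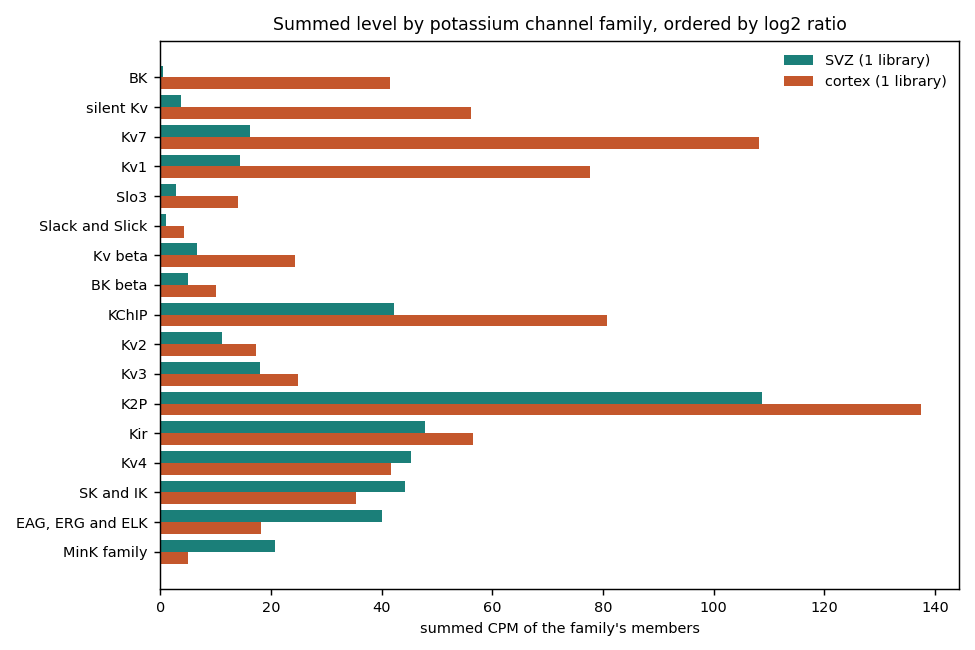
Summed CPM (horizontal axis, from 0) of the members of each potassium channel family (vertical axis, ordered by log2 ratio) in the SVZ library (green) and the cortex library (orange), 1 library each and therefore without error bars. Kv7 stands at 16.1 CPM in the SVZ and 108 CPM in the cortex, whereas the EAG, ERG and ELK family stands at 40.1 and 18.1 CPM.

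Among voltage-gated pore subunits, 19 of 30 were compared, of which 8 passed 4-fold towards the cortex and 0 towards the SVZ. The shares of all genes were 7.01% (cortex) and 10.2% (SVZ). The median log2 ratio was -0.97, against 0.11 over all genes. The Kv7 genes code for the slowly activating channels that carry the neuronal M-current, which restrains repetitive firing. *Kcnq5*, which codes for a subunit of this current, had 150 reads in the SVZ (2.92 CPM) and 819 in the cortex (37.1 CPM), 12.7-fold higher in the cortex (log2 ratio -3.67, interval -3.93 to -3.42). *Kcnq3*, another of its subunits, was at 1.38 and 3.90 CPM, 2.83-fold higher in the cortex (interval -1.97 to -1.03). *Kcnq1*, best known from heart and epithelia, had 32 and 8 reads and an interval from -0.37 to 2.11, so that a difference was not detectable at this depth. Its exons overlap those of the antisense RNA *Kcnq1ot1*.

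The Kv1 genes, which code for low-threshold channels of axons, differed widely among themselves. On chromosome 6 (GRCm38), *Kcna5* (126532551 to 126535412), *Kcna1* (126640397 to 126646384) and *Kcna6* (126708329 to 126740674) lie side by side on the minus strand. *Kcna1* was at 2.14 CPM in the SVZ and 35.6 CPM in the cortex, 16.7-fold higher in the cortex. *Kcna6* was at 0.486 and 24.4 CPM (25 and 537 reads), 50.1-fold higher in the cortex (log2 ratio -5.65, interval -6.29 to -5.07). Their neighbour *Kcna5*, with 34 and 27 reads, showed a log2 ratio of -0.89 and a mean under 1 CPM. On chromosome 3, *Kcna3* (107036169 to 107038070), *Kcna2* (107101146 to 107115005) and *Kcna10* (107183056 to 107195721) lie together, and neither of the 2 that were compared was 4-fold apart. *Kcna3* was at 7.64 and 8.39 CPM, *Kcna2* was at 3.46 and 1.90 CPM, 1.82-fold higher in the SVZ, and *Kcna10* had 1 read and 0 reads. *Kcna4*, an A-type channel gene on chromosome 2, had no read in the SVZ library and 134 reads (6.08 CPM) in the cortex library. Against the floor of 3 reads that a count of 0 allows, *Kcna4* was 104-fold higher in the cortex (log2 ratio -6.70). Its interval reached up to -6.38, nearer to equality.

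The promoter of *Kcna6* is shown as the regulatory sequence of the Kv1 gene with the widest ratio among those read in both libraries. It covers 250 bases before to 50 bases after the start that RefSeq gives on GRCm38.p6 (chr6:126740625-126740924, minus strand) and holds 8 CG dinucleotides and no GC box (GGGCGG on either strand, marked by capitals in the sequences shown here). A GC box stands in 35.7% of all 32851 RefSeq promoter windows of this length and in 48.4% of the 95 windows of the members.
*Kcna6*: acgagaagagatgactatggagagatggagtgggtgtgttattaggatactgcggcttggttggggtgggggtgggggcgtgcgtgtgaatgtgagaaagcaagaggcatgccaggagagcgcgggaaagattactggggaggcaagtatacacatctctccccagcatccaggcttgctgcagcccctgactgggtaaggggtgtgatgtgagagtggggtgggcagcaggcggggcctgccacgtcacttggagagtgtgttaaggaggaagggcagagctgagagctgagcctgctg

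Most of the Kv2, Kv3 and Kv4 genes described here differed less between the areas. *Kcnb2*, which codes for a delayed rectifier of neuronal cell bodies, was at 5.87 and 9.57 CPM in SVZ and cortex, 1.63-fold higher in the cortex. Of the Kv3 genes, known for fast-spiking cells, *Kcnc1* was at 7.89 and 15.5 CPM in SVZ and cortex and *Kcnc2* at 9.39 and 5.22 CPM, so that these lay on opposite sides. The A-type Kv4 genes *Kcnd2* (13.7 and 19.1 CPM) and *Kcnd3* (31.1 and 20.0 CPM) were likewise divided, with log2 ratios of -0.48 (interval -0.66 to -0.30) and 0.63 (0.48 to 0.79). *Kcnd1* was at 0.544 and 2.54 CPM, 4.67-fold higher in the cortex.

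In the EAG, ERG and ELK family (*Kcnh*), both members compared lay on the SVZ side. *Kcnh7*, a member of the ERG group, was at 32.7 CPM in the SVZ (1682 reads) and 12.7 CPM in the cortex (279 reads), 2.58-fold higher in the SVZ (log2 ratio 1.37, interval 1.19 to 1.56). *Kcnh8*, of the ELK group, was at 5.56 and 2.09 CPM, 2.67-fold higher. These were the voltage-gated genes with the largest ratios towards the SVZ, and both stayed under 4-fold. Of the other *Kcnh* genes, *Kcnh1* and *Kcnh6* had no read in either library, and *Kcnh2*, *Kcnh3*, *Kcnh4* and *Kcnh5* had means under 1 CPM, with 21 to 30 reads in the SVZ and 7 to 35 in the cortex.

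The modifier, or silent, subunits form no functional channel alone and join Kv2 subunits to change their gating. Of 10 such genes 5 were compared, and 4 of these were at least 4-fold higher in the cortex, against 7.01% of all genes. Of these 4, *Kcnv1* and *Kcns2* were under 0.4 CPM in the SVZ, so the minimum required their 4-fold difference. *Kcnv1* (chromosome 15, 45106284 to 45114920) had 8 reads in the SVZ (0.156 CPM) and 856 reads in the cortex (38.8 CPM). It was 250-fold higher in the cortex (log2 ratio -7.96, interval -9.18 to -6.98), the widest ratio of any member read in both libraries. *Kcng1* was 9.56-fold, *Kcns2* 7.97-fold and *Kcnf1* 4.83-fold higher in the cortex. *Kcns3* differed by less than counting error (76 and 41 reads, interval -0.90 to 0.25). As a group, the modifiers summed to 3.71 CPM in the SVZ and 56.2 CPM in the cortex, and *Kcnv1* held 69.1% of the cortex sum.

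**Figure D3:**
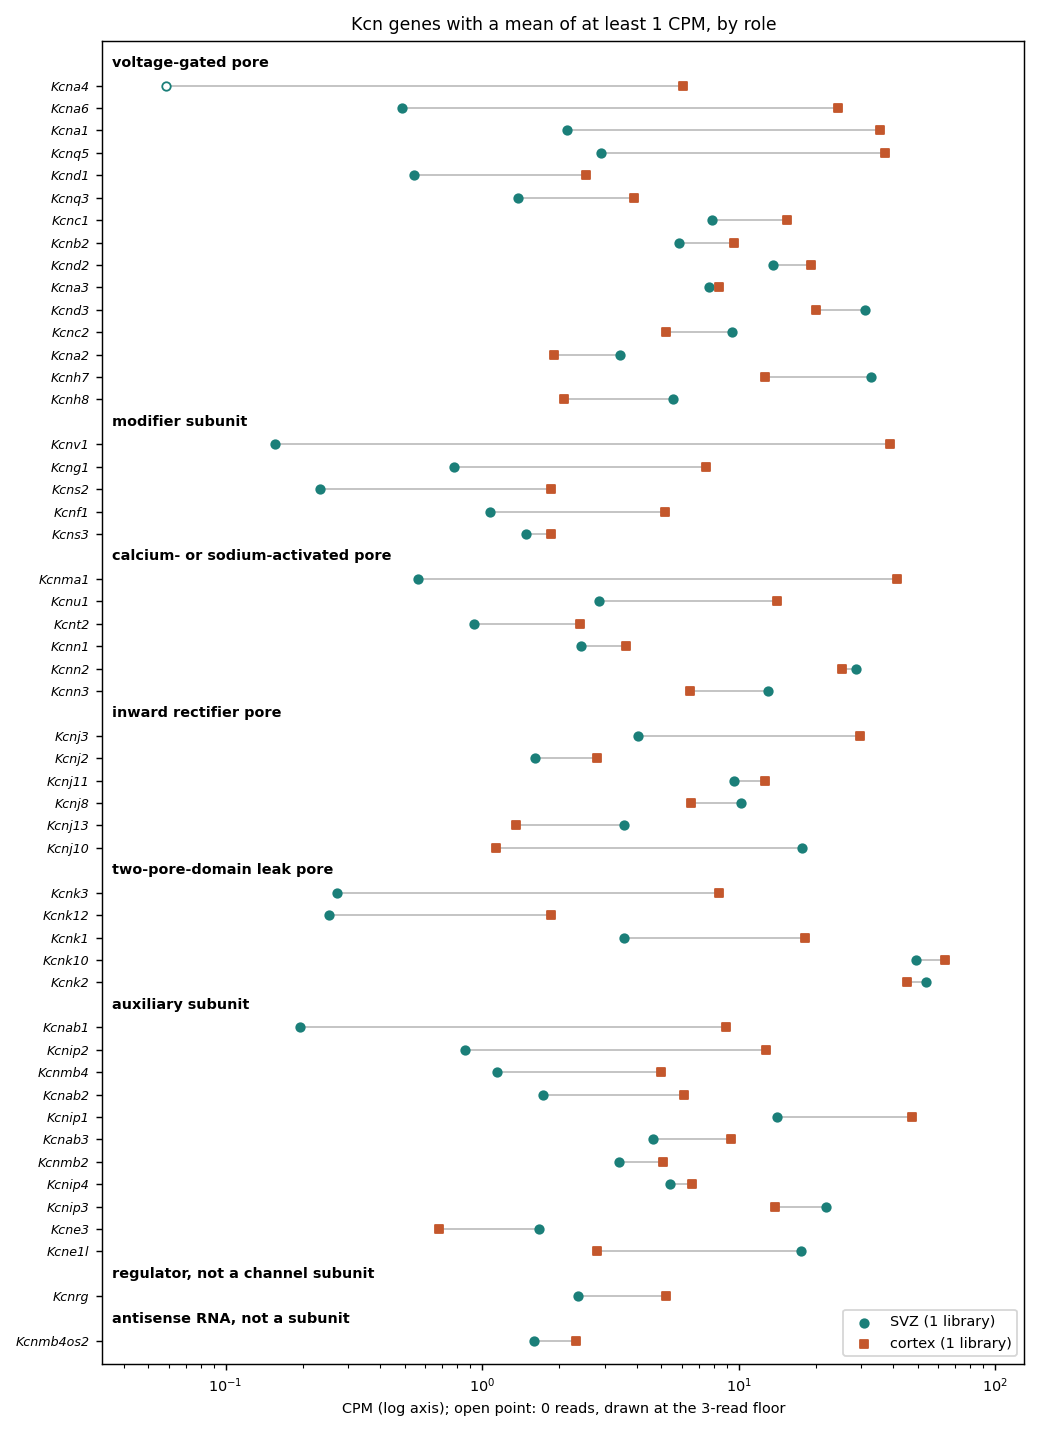
CPM (horizontal log axis) of 50 of the 54 *Kcn* genes averaging 1 CPM or more, grouped by role and ordered by log2 ratio within a role, in the SVZ library (green circles) and the cortex library (orange squares); the grey line joins the 2 libraries and the open circle marks 0 reads drawn at the 3-read floor. *Kcnv1*, *Kcna4* and *Kcnma1* have the longest lines, with the cortex on the right, and *Kcnj10* has the longest line with the SVZ on the right.

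Calcium- and sodium-activated channels were divided between the areas. *Kcnma1*, the pore of the large-conductance BK channel, had 29 reads in the SVZ (0.564 CPM) and 915 reads in the cortex (41.5 CPM). It was 73.6-fold higher in the cortex (log2 ratio -6.20, interval -6.79 to -5.67). The small-conductance (SK) genes, which code for channels of the afterhyperpolarization, lay nearer to equality. *Kcnn2* was at 28.8 and 25.3 CPM, *Kcnn3* at 13.1 and 6.44 CPM, 2.03-fold higher in the SVZ, and *Kcnn1* at 2.43 and 3.63 CPM. *Kcnn4*, of intermediate conductance and known from blood cells, had no read in either library. The sodium-activated *Kcnt1* had 0 and 43 reads, 33.4-fold higher in the cortex against 3 reads (interval up to a log2 ratio of -4.70). Its relative *Kcnt2* had 48 and 53 reads, 2.58-fold higher in the cortex. *Kcnu1*, best known from sperm, was at 2.86 and 14.1 CPM, 4.92-fold higher in the cortex.

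The BK pore gene is shown with its promoter, since its ratio was the widest of any pore subunit read in both libraries. The window (chr14:24004156-24004455, minus strand, GRCm38.p6) holds 36 CG dinucleotides and 3 GC boxes, of which 2 overlap.
*Kcnma1*: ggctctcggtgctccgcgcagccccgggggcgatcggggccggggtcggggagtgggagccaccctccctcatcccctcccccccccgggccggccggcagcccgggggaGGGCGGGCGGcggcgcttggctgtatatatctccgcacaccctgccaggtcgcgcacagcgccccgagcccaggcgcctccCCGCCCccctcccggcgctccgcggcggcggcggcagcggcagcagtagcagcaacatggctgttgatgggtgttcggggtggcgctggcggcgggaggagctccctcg

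Of the 54 members compared, the largest ratio towards the SVZ was that of an inward rectifier. *Kcnj10*, the glial channel that takes up potassium released by neurons, had 908 reads in the SVZ (17.7 CPM) and 25 reads in the cortex (1.13 CPM). It was 15.6-fold higher in the SVZ (log2 ratio 3.96, interval 3.39 to 4.60). *Kcnj3*, which codes for a subunit of the G protein-gated channels through which transmitters inhibit neurons, went the other way, with 4.06 and 29.7 CPM, 7.30-fold higher in the cortex. The other G protein-gated genes were low, *Kcnj9* with 14 and 35 reads, *Kcnj6* with 0 and 2 reads and *Kcnj5* with none. *Kcnj11* and *Kcnj8* code for the pores of ATP-sensitive channels, the first in neurons and endocrine cells and the second in the cells around vessels. *Kcnj2*, a classical strong rectifier, was at 1.61 and 2.81 CPM. *Kcnj11* was at 9.60 and 12.7 CPM and *Kcnj8* at 10.2 and 6.53 CPM, 1.56-fold higher in the SVZ. The pericyte list was higher in the SVZ for 3 of the 4 genes compared and summed to 92.5 and 62.6 CPM, of which *Rgs5* supplied 69.6 and 45.5 CPM. Intervals held equal CPM for *Pdgfrb* (-0.04 to 0.67) and for *Abcc9*, the gene on the cortex side (-0.44 to 0.12). The part of pericytes in the *Kcnj8* ratio was not tested.

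*Kcnj10* (chromosome 1, 172341210 to 172374085) is shown with its promoter (chr1:172340960-172341259, plus strand, GRCm38.p6), which holds 21 CG dinucleotides and 3 GC boxes.
*Kcnj10*: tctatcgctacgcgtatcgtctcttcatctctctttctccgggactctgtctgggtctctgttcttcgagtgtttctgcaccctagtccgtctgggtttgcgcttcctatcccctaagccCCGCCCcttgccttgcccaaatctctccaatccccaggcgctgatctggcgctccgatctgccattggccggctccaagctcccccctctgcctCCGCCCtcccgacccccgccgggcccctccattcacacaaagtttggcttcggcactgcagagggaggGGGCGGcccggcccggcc

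The K2P leak channels included the highest level of any member in the cortex, and 3 of the 5 compared were at least 4-fold higher there. Per kilobase of exon, *Kcnk2* stood at 10.8 CPM in the SVZ, behind *Kcne1l* at 11.3 CPM, and at 9.19 CPM in the cortex, where it was first of all members. *Kcnk2* and *Kcnk10* code for the mechano- and temperature-sensitive channels of the TREK group, and both were near equal between the areas. *Kcnk2* was at 53.5 and 45.4 CPM (log2 ratio 0.24, interval 0.13 to 0.34) and *Kcnk10* at 49.0 and 63.5 CPM (-0.37, -0.47 to -0.28). Other K2P genes were far apart. *Kcnk1* was at 3.58 and 18.2 CPM, 5.08-fold higher in the cortex, and *Kcnk12* had 13 and 41 reads, 7.36-fold higher. *Kcnk3*, which codes for an acid-sensitive leak channel, had 14 and 184 reads, 30.7-fold higher in the cortex. On the other side, *Kcnk5* had 81 reads in the SVZ and 0 in the cortex, with a mean under 1 CPM. Against 3 reads it was 11.6-fold higher in the SVZ (interval from a log2 ratio of 3.20).

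Per kilobase of exon, the order of levels differed between the areas. In the SVZ, *Kcne1l*, *Kcnk2*, *Kcnip3* (6.15 CPM per kilobase), *Kcnk10* (5.58) and *Kcna3* (4.02) came first. In the cortex, *Kcnk2* was followed by *Kcnv1* (8.46 CPM per kilobase), *Kcnk1* (8.14), *Kcnip1* (7.67) and *Kcna1* (7.46). Exon lengths came from GENCODE M21 and take the union of all annotated exons of a gene, so a gene with long rarely used exons is set too low.

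Of 16 auxiliary subunits 11 were compared, 3 passed 4-fold towards the cortex and 1 towards the SVZ. The shares of all genes were 7.01% (cortex) and 10.2% (SVZ), and the count of 1 cannot be told from its share. Of the 3, *Kcnab1* was under 0.4 CPM in the SVZ, so the minimum required its 4-fold difference. *Kcne1l*, also called *Kcne5*, codes for a single-pass subunit of the MinK family that modulates Kv7 channels. It had 896 reads in the SVZ (17.4 CPM) and 62 in the cortex (2.81 CPM), 6.20-fold higher in the SVZ (log2 ratio 2.63, interval 2.26 to 3.03), and was with *Kcnj10* 1 of the 2 members past 4-fold on that side. *Kcne3*, of the same family, was at 1.67 and 0.680 CPM, 2.46-fold higher in the SVZ. The Kv1 partners *Kcnab1* and *Kcnab2* were at 0.194 and 8.93 CPM and at 1.73 and 6.12 CPM, and *Kcnab1*, which speeds inactivation, was 46.0-fold higher in the cortex. *Kcnab3* was at 4.63 and 9.30 CPM. The KChIP genes code for calcium-binding partners of Kv4 channels. *Kcnip2* was 14.9-fold higher in the cortex (44 and 281 reads) and *Kcnip1* 3.38-fold higher (14.1 and 47.6 CPM), while *Kcnip3*, also known as a calcium-dependent transcriptional repressor, was 1.58-fold higher in the SVZ (21.8 and 13.8 CPM). *Kcnip4* differed by less than counting error (5.40 and 6.58 CPM). The neuronal BK partner *Kcnmb4* had 59 and 110 reads, 4.35-fold higher in the cortex, and *Kcnmb2* 175 and 112 reads. Reads of *Kcnmb4* are uncertain, since its exons overlap those of *Kcnmb4os1* and *Kcnmb4os2* on the other strand, and the reads on its own and the opposite strand summed to 149 and 349. *Kcnrg*, the regulator, was at 2.37 and 5.22 CPM, 2.20-fold higher in the cortex, and *Kcnmb4os2* at 1.59 and 2.31 CPM.

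The promoter of *Kcne1l* (chrX:142306149-142306448, minus strand, GRCm38.p6), the first member in the SVZ by level per kilobase, holds 12 CG dinucleotides and 1 GC box. A TATA box (TATAAA) or the E box CAGATG was searched on both strands and stands in none of the 4 promoters shown. The first is in 13.6% of all windows and 5.26% of the members' windows, and the second in 17.2% and 20%.
*Kcne1l*: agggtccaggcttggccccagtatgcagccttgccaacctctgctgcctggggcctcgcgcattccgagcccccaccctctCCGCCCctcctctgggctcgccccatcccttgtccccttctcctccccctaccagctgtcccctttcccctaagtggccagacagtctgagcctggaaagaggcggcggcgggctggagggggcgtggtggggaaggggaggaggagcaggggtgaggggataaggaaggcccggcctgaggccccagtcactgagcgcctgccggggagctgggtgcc

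Some low members have names known from other cell types. *Kcne2* and *Kcnj13* are channel genes of the choroid plexus, the secretory tissue inside the ventricles, and *Kcnk13* is a microglial one. *Kcne2* had 58 reads in the SVZ and 0 in the cortex, 8.29-fold higher in the SVZ against 3 reads (interval from a log2 ratio of 2.71). *Kcnj13* had 184 and 30 reads, 2.63-fold higher in the SVZ. Its exons overlap those of *Gigyf2* on the other strand, and reads that overlap both genes are left out. The reads on its own and the opposite strand summed to 186 and 30. The unstranded count does not say from which strand its reads came. Of the 6 choroid plexus markers, 2 reached the 1 CPM minimum and both were at least 4-fold higher in the SVZ. Of the rest *Kl* had no read in either library, and *Aqp1* had 13 and 4 reads with an interval that holds equal CPM. The list summed to 246 and 0.907 CPM, with *Folr1*, *Clic6* and *Otx2* at 0 reads in the cortex, and *Ttr* supplied 240 CPM of the SVZ sum. *Kcnk13* had 22 and 0 reads, 3.14-fold higher in the SVZ against 3 reads (interval from a log2 ratio of 1.23). The microglial markers were higher in the SVZ for 10 of 10 genes and summed to 109 and 31.1 CPM, with *Trem2* at 0 reads in the cortex. The part of these cell types in the 3 ratios was not tested.

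Partner proteins that do not bear the *Kcn* name were examined next, as a list of 13 genes. Of these 10 were compared, 4 were at least 4-fold higher in the cortex and 1 in the SVZ, with a median log2 ratio of -1.60. Over all genes the shares were 7.01% (cortex) and 10.2% (SVZ), with a median of 0.11. *Lrrc55*, which codes for a BK gamma subunit, was at 0.817 CPM in the SVZ and 38.7 CPM in the cortex, 47.4-fold higher in the cortex, beside the 73.6-fold of *Kcnma1*. The Kv4 partners *Dpp6* (2.80 and 33.9 CPM) and *Dpp10* (3.87 and 28.3 CPM) were 12.1-fold and 7.31-fold higher, although no Kv4 pore gene but *Kcnd1* reached 4-fold. *Lgi1*, a secreted protein of Kv1 complexes, was 14.8-fold higher in the cortex (72 and 456 reads). The exception was *Cntnap2*, which codes for the adhesion protein that gathers Kv1 channels beside the nodes of axons. It had 7987 reads in the SVZ (155 CPM) and 467 reads in the cortex (21.2 CPM), 7.33-fold higher in the SVZ (log2 ratio 2.87, interval 2.74 to 3.01). Its partner *Cntn2* was at 141 and 335 CPM, 2.37-fold higher in the cortex.

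The sodium-potassium pump, which builds the potassium gradient that the channels use, had genes on both sides. Its beta subunits, which bring the pump to the membrane, stayed under 4-fold. *Atp1b1* was at 53.0 and 77.9 CPM in SVZ and cortex, *Atp1b2* at 57.4 and 45.2 CPM and *Atp1b3* at 112 and 73.1 CPM. The pump's modulator *Fxyd1* had 171 and 0 reads, 24.4-fold higher in the SVZ against 3 reads (interval from a log2 ratio of 4.30). Of 11 pump genes 9 were compared, 2 were at least 4-fold higher in the SVZ and 1 in the cortex, and the median log2 ratio was 0.61. Over all genes the shares were 10.2% (SVZ) and 7.01% (cortex), and the median was 0.11. Among 9 genes, counts this small cannot be told from those shares.

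**Figure D4:**
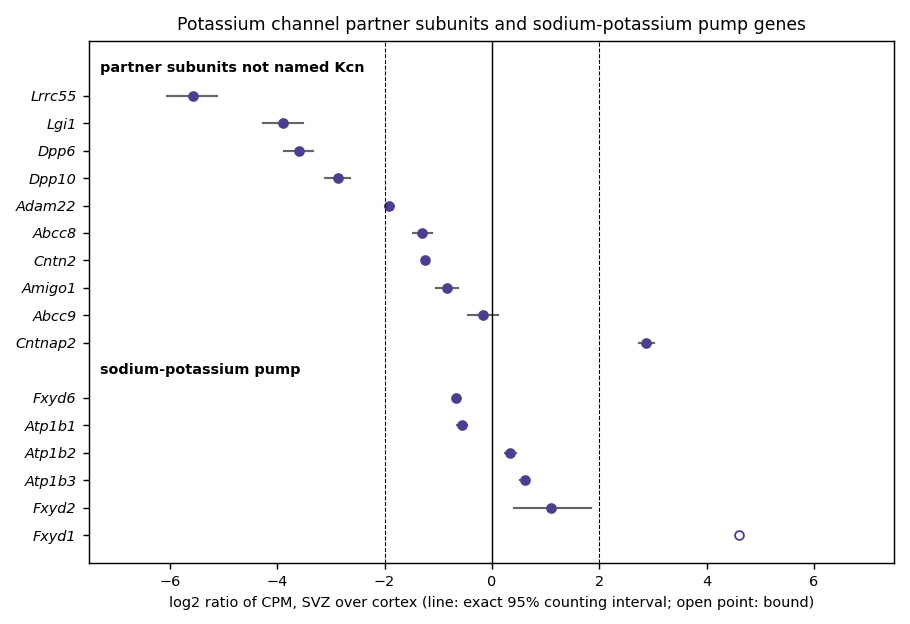
Log2 ratio of CPM, SVZ over cortex (horizontal axis), of the 10 partner genes and 6 of the 9 pump genes averaging 1 CPM or more (vertical axis); lines are exact 95% counting intervals, the open point is a bound against 3 reads, and dashed lines stand at 4-fold. *Cntnap2* lies at 2.87 apart from the other partner genes, which lie at or below -0.16, and the 3 beta subunits of the pump lie between -0.56 and 0.61.

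The members without a read in either library were *Kcna7*, *Kcne1*, *Kcng2*, *Kcng3*, *Kcng4*, *Kcnh1*, *Kcnh6*, *Kcnj1*, *Kcnj5*, *Kcnk7*, *Kcnk9*, *Kcnk15*, *Kcnk16*, *Kcnk18* and *Kcnn4*. With no read, a level of up to 3 reads cannot be seen, which is 0.0583 CPM at the SVZ depth and 0.136 CPM at the cortex depth. Those with at most 3 reads were *Kcna10*, *Kcnj6*, *Kcnj16*, *Kcnk4* and *Kcnmb1*. Among the unread genes were the renal *Kcnj1*, the cardiac *Kcne1* and the leak channel *Kcnk9* of granule neurons.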

How the data were processed

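Areas of stained sections were cut by LCM and sequenced, 1 library from the SVZ and 1 from the cortex. Per the study's methods, adapters were trimmed with cutadapt 4.1, and read 1 was mapped to mm10 (Illumina iGenomes) and counted per gene with STAR 2.7.9a. The deposited counts are raw whole numbers with 3 columns per gene, unstranded and each strand. Reads that map to several places or overlap more than 1 gene are left out by STAR, so overlapping genes are undercounted. The authors' merged table, with CPM, a fold change and its log10, was not used.

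CPM was computed from the unstranded counts on the total of gene rows, so 1 read was worth 0.0194 CPM (SVZ) and 0.0453 CPM (cortex). No pseudocount was added. Where a library had no read, 3 reads stood in and the ratio became a bound. This bound leaves out the counting error of the other library, so the interval limit lies nearer to equality. Genes with at most 3 reads in each library got no ratio. Positions and exon lengths came from GENCODE M21 (GRCm38) for all 96 members, and promoters from RefSeq for 70 of them. The members, gene lists, roles and motifs were chosen with earlier results of these data known. Any member could be named, and in each role those with the highest CPM and those past 4-fold were given with values. Some genes that entered the counts, sums and medians are not reported here by name. The procedures were tested on simulated data. Alternatives used edgeR 4.0.16 and DESeq2 1.42.0 (R 4.3.3) for scaling only. Intervals used scipy 1.17.1, tables pandas 2.3.3 and plots matplotlib 3.10.9, under Python 3.11.15.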

Additional observations from a re-analysis of the deposited data

Results flagged for a closer look

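The stranded count columns, which the comparisons above do not use, held more reads for 8 members than the unstranded column, by more than the 3 reads that a count of 0 allows. *Kcnn2* gained 607 reads (SVZ) and 236 (cortex). *Kcnmb4* gained 90 and 239 reads, *Kcnmb4os1* 51 and 144, and *Kcnmb4os2* 38 and 88. *Kcnip4* gained 77 and 21 reads. The gain passed 3 reads in the SVZ but not in the cortex for *Kcnrg* (8 reads), *Kcnt2* (5) and *Kcnd3* (4). In GENCODE M21 the exons of each of these except *Kcnrg* overlap those of a gene on the other strand, and the counts do not say from which gene of a pair the reads came.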

How the results depend on the processing

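No paired analysis was possible because only 1 library was made per area, which also left no replicate to omit. The 4-fold counts were 2 (SVZ) and 21 (cortex). With a pseudocount of 1 CPM the cortex count was 13. With a minimum mean of 10 CPM the counts were 1 and 8, since fewer genes were compared. With no minimum they were 5 and 26, the SVZ count adding *Kcne2*, *Kcnk5* and *Kcnj14*. Of these, *Kcnj14* had 13 reads in the SVZ and 1 in the cortex, with an interval that holds equal CPM (-0.26 to 7.89). TMM, upper-quartile and DESeq2 scaling and totals without the most counted genes each gave 2 and 23. The sum of the stranded columns gave 2 and 22, and thinning the SVZ reads to the cortex total gave 3 and 20. At 2-fold the SVZ count was 7. The summed log2 ratio of -0.82 became -0.91 with TMM, upper-quartile and DESeq2 scaling and -0.85 with totals without the most counted genes. Upper-quartile scaling moved the median of all genes by -0.10. The median member ratio kept its sign under each alternative run. None of the 54 compared members changed side with any of the other scalings, with thinning, with the stranded sum or with the pseudocount. Depth limits the bounds: with the SVZ reads thinned to the cortex total, *Kcna4* had a log2 bound of -5.48 and *Kcnt1* of -3.84. Leaving out the antisense RNAs and *Kcnrg*, an alternative chosen after seeing the data, left both counts at 2 and 21.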

Other observations

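The antisense transcripts that the symbol rule left out were read as well. *Kcnq1ot1*, the imprinted RNA that overlaps *Kcnq1*, had 7150 reads in the SVZ library (139 CPM) and 4846 in the cortex library (220 CPM), a log2 ratio of -0.66 (interval -0.71 to -0.61), far above the 32 and 8 reads of *Kcnq1* itself. *Kcnd3os* had 33 and 0 reads, 4.72-fold higher in the SVZ against 3 reads (interval from a log2 ratio of 1.86). *Kcnd3* was also higher on that side.

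Members with reads in 1 library alone and a mean under 1 CPM were found on both sides. In the cortex library these were *Kcnc4* (21 reads), *Kcns1* (18), *Kcnj12* (13) and *Kcnv2* (5), besides *Kcnt1*. In the SVZ library they were *Kcnj15* (25 reads), *Kcnmb3* (21) and *Kcnj4* (5), besides *Kcne2*, *Kcnk5* and *Kcnk13*.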
